A study of Homo sapiens with 6 samples.

Results

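The circadian clock genes described here were 10 of the 60656 genes in the count table: BHLHE40, BHLHE41, CLOCK, BMAL1, PER1, PER2, PER3, CRY1, CRY2 and NR1D2. They were chosen by name, as core clock genes together with BHLHE40, after the response of BHLHE40 to abemaciclib in these libraries was known. Their fold changes between the groups are therefore a description and carry no P value here. RNA came from parental ZR-75-1 cells, an oestrogen receptor (ER)-positive human breast cancer line grown in RPMI-1640 with serum. A group of 3 libraries was treated with abemaciclib, an inhibitor of the kinases CDK4 and CDK6, at 500 nM for 4 days, and a group of 3 received an equal volume of DMSO, the solvent, for the same 4 days. All 6 libraries were of cells without an RB1 knockout, and the knockout cells were not analysed here. ZR-75-1 is a single line, each group had one dose and one time, and the sources used here describe no synchronization of the cultures and no clock time of harvest.

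Libraries were made with a 3′ mRNA kit, which primes at the poly(A) tail and counts transcripts there, and so longer transcripts do not give more counts. The libraries held 3317860 to 4013156 counts, and the summed level of the 10 clock genes rested on 705 to 840 counts per library. Levels are given as CPM, counts per 1e6 after TMM scaling (edgeR's adjustment for library composition). All 6 luminal epithelial markers (ESR1, GATA3, FOXA1, KRT8, KRT18 and KRT19) were detected, at a summed 6539 to 7106 CPM with DMSO and 7423 to 8527 CPM with abemaciclib. They did not move together. In the fit over all genes ESR1 (log2 fold change 0.83) and KRT19 (0.45) were higher with abemaciclib, KRT18 (-0.35) was lower, and 3 were not called. Of 8 markers of other cell types 6, among them PTPRC, PECAM1 and VIM, were at 0 counts in all libraries, and the 8 summed to 10.1 to 15.8 CPM. Nearly all of this sum was COL1A1, which was detected in every library at 35 to 57 counts. DCN had 1 count, in abemaciclib replicate 1. Proliferation separated the groups: 6 of 6 proliferation markers, MKI67 and TOP2A among them, were lower with abemaciclib in the fit over all genes, and their summed level was 2881 to 3073 CPM with DMSO and 150.1 to 165.3 CPM with abemaciclib. Any part of this difference in the clock gene values was not tested. In bulk RNA, fewer cells that express a gene and less of its RNA per cell cannot be told apart.

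The circadian clock is a transcriptional feedback loop. CLOCK and BMAL1 bind as a pair to E-boxes, short DNA sites in promoters and enhancers, and switch on the PER and CRY genes, whose proteins return to the nucleus and inhibit CLOCK–BMAL1. A connected loop runs through the REV-ERB receptors, encoded by NR1D1 and NR1D2, which repress BMAL1 at sites that the activating ROR receptors also bind. BHLHE40 and BHLHE41, also called DEC1 and DEC2, are basic helix–loop–helix repressors that bind E-boxes and so compete with CLOCK–BMAL1. BHLHE40 is also known as a gene induced by hypoxia.

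The promoter windows that hold the E-box core CACGTG are shown first because CLOCK–BMAL1, BHLHE40 and BHLHE41 bind E-boxes. They cover 250 bases before to 50 bases after an annotated start and are from RefSeq on GRCh38.p14. All 10 genes had at least 1 window, 15 in all. The window of BHLHE40 lies at chr3:4979187-4979486 on the plus strand, that of BHLHE41 at chr12:26124988-26125287 on the minus strand, that of PER1 at chr17:8152355-8152654 on the minus strand, and that of the second annotated start of NR1D2 at chr3:23945871-23946170 on the plus strand. Each is written 5′ to 3′ on the strand of its gene. Capitals mark CACGTG and, in NR1D2 alone, also TTACATAA, which is the other strand of the D-box TTATGTAA.

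BHLHE40: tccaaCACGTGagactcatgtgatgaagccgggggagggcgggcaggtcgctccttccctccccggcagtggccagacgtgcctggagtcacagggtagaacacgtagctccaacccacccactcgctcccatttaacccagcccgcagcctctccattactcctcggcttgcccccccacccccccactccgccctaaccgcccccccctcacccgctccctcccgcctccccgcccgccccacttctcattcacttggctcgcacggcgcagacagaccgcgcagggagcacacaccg

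BHLHE41: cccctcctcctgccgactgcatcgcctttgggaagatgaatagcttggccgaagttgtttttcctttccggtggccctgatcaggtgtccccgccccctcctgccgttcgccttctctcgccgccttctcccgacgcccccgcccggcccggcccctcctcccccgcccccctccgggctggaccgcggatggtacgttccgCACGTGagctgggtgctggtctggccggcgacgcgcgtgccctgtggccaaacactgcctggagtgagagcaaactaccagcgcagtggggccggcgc

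PER1: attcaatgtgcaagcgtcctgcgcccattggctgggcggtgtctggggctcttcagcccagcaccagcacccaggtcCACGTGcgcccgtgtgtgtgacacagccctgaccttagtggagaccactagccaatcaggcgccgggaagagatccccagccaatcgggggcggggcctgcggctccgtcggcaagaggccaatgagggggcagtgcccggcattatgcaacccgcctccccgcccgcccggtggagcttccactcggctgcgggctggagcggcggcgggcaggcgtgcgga

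NR1D2: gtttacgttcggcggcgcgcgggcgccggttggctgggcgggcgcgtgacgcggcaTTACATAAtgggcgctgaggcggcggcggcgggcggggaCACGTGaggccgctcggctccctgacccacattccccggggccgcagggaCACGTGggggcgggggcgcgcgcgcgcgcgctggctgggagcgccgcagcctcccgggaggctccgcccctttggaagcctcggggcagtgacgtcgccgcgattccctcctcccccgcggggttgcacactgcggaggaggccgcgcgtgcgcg

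The E-box core, which reads the same on both strands, was found in 4 of the 10 genes and in 8.77% of all 27305 genes with a window. It was also found in 6 of 41 other clock genes with a window, from the further lists below. In BHLHE40 it lay with its first base 245 bases before the start, at the far edge of the window. BHLHE41 had its match much closer to the start, 48 bases before it. NR1D2 was the member with 2 matches, beginning 155 and 105 bases before its second start. The D-box (TTATGTAA or TTACGTAA, both strands), the site of the PAR bZIP factors such as DBP, was found in PER2, PER3 and NR1D2. This was 3 of 10 genes, against 1.27% of all genes and 0 of the 41 other clock genes. The core of the ROR element (TAGGTCA, both strands) was found in BMAL1 and CRY2, against 2.29% of all genes and 2 of the 41 other clock genes. The full palindromic oestrogen response element, whose half-site overlaps the ROR core in its last letters, was in 0 of the 10 genes and in 0.0732% of all genes. These matches describe letters in a short window and not binding. The windows were richer in G and C than the median window of all genes (58.7%), except 1 window of BMAL1 at 49.3% and 1 of CRY2 at 46.3%. CACGTG holds a C followed by a G, a pair found 14 times in the median window of all genes. Those windows of BMAL1 and CRY2 held 6 such pairs each, and the others held 22 to 60. The shares over all genes were not matched for this or for the number of windows per gene.

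**Figure D1:**
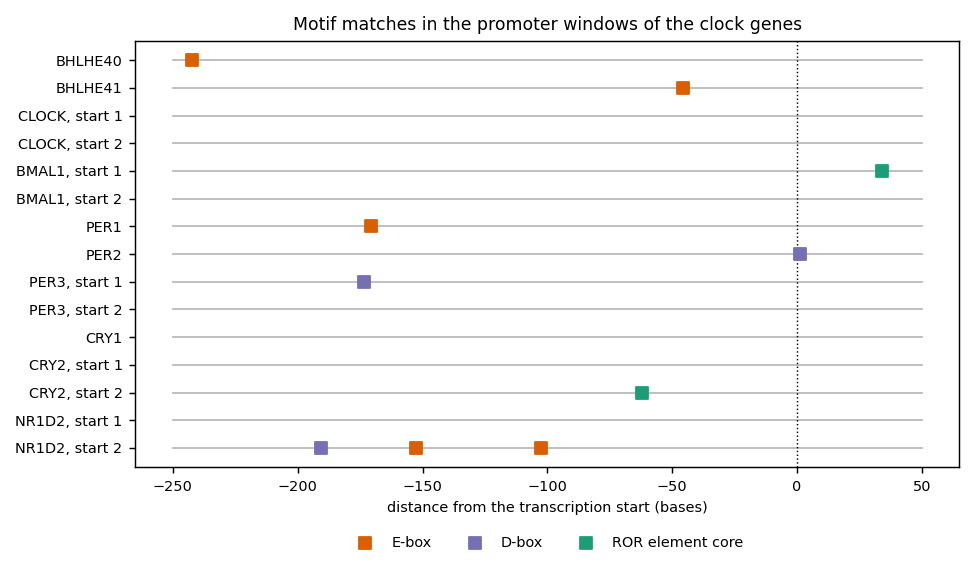
Motif matches in the promoter windows of the 10 clock genes, 1 line per annotated start, with the distance from the start in bases on the x axis. Squares mark the E-box core, the D-box and the core of the ROR element. BHLHE40, BHLHE41, PER1 and NR1D2 hold an E-box core, NR1D2 together with a D-box.

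All 10 clock genes passed the filter on low counts. In the abemaciclib group 1 of them, BHLHE40, rose and 3, NR1D2, CLOCK and CRY1, fell. Rose and fell here mean an adjusted P below 0.05 in a quasi-likelihood fit in edgeR over all 10863 genes tested. Over all genes tested, 12.5% were called higher and 13.3% lower. The median log2 fold change was -0.20 over the 10 genes and -0.0018 over all genes tested. For 1 clock gene the abemaciclib libraries were all above the DMSO libraries, against 19.1% of all genes tested, and for 3 they were all below, against 20.1%. The other 6 clock genes overlapped between the groups. Since the genes were chosen with these values in view, nothing is read from the counts.

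**Figure D2:**
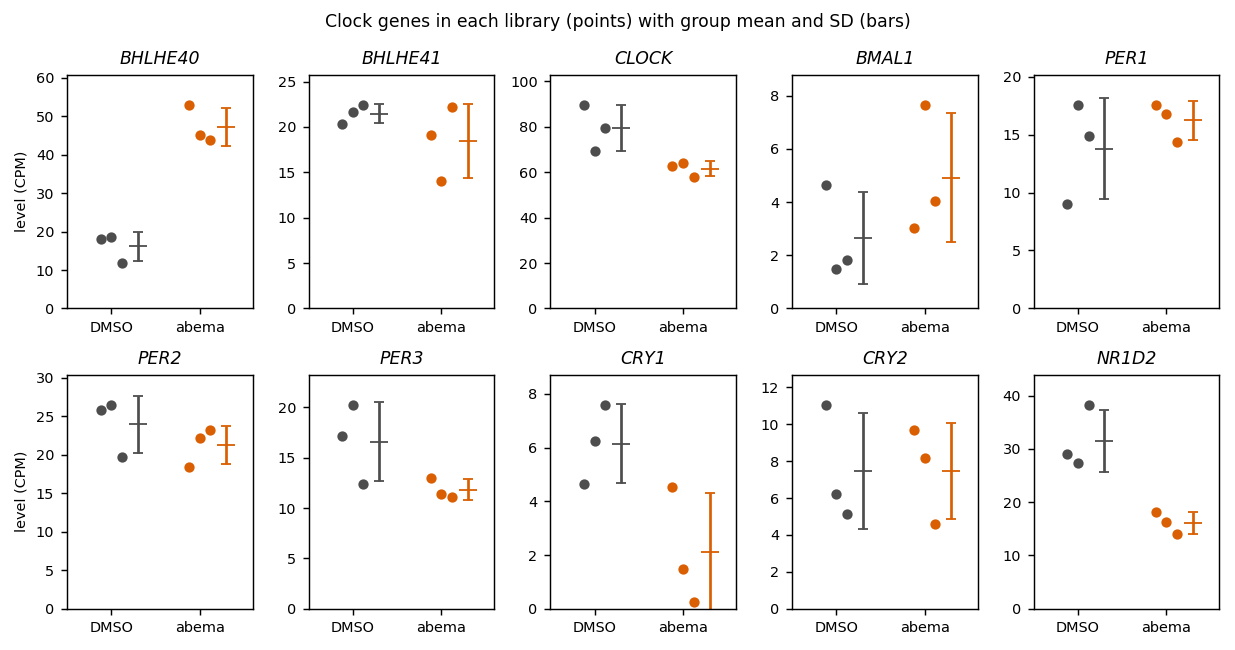
Level of each clock gene in CPM (y axis, from 0) in the 3 DMSO and 3 abemaciclib (abema) libraries, with points for libraries and bars for the group mean and SD; the lower SD bar of CRY1 with abemaciclib is cut by the axis. BHLHE40 sits at 11.8 to 18.7 CPM with DMSO and at 43.8 to 52.9 CPM with abemaciclib, and NR1D2 moves the other way.

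Of the E-box repressors, BHLHE40, on chromosome 3 of GRCh38 from 4979437 to 4985323, had 18.0, 18.7 and 11.8 CPM in the 3 DMSO libraries. In the abemaciclib libraries it had 52.9, 45.1 and 43.8 CPM. The lowest abemaciclib library was thus more than double the highest DMSO library. Its log2 fold change was 1.54 (standard error 0.20), a level 2.91-fold higher, which lay above 98.9% of all genes tested. BHLHE40 was chosen with its rise known, so this high place follows from the choice. The value stayed between 1.36 and 1.66 under all 12 alternative analyses, and BHLHE40 was called higher in each. An antisense gene, BHLHE40-AS1, shares 451 exon bases with BHLHE40 but not within 1000 bases of its end, and it held 15 counts over the 6 libraries against 684 for BHLHE40.

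BHLHE41, the paralogue, on chromosome 12 from 26120030 to 26125037, did not move with it. It had 20.3, 21.7 and 22.4 CPM with DMSO and 19.1, 14.1 and 22.2 CPM with abemaciclib. The groups overlapped, and the log2 fold change was -0.22, with a 95% interval from -0.69 to 0.24. A rise as large as that of BHLHE40 lies outside this interval. With DMSO the level of BHLHE41 was above that of BHLHE40 in every library, and with abemaciclib it was below it in every library. Ratios of counts within a library do not depend on scaling between libraries. The ratio of BHLHE40 to BHLHE41 was 0.886, 0.863 and 0.527 with DMSO and 2.78, 3.21 and 1.98 with abemaciclib.

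**Figure D3:**
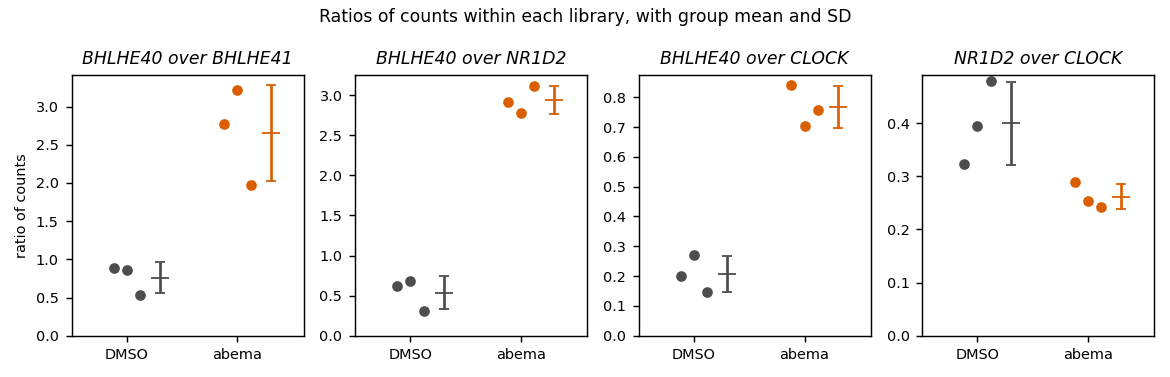
Ratios of counts within each library for 4 pairs of clock genes (y axis, from 0), with points for the 3 DMSO and 3 abemaciclib (abema) libraries and bars for the group mean and SD. BHLHE40 gains on BHLHE41, NR1D2 and CLOCK in all 3 abemaciclib libraries, and NR1D2 loses on CLOCK.

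NR1D2, which encodes the nuclear receptor and repressor REV-ERBβ, lies on chromosome 3 from 23945286 to 23980617. It had 29.0, 27.3 and 38.2 CPM with DMSO. With abemaciclib the levels were 18.2, 16.3 and 14.1 CPM, all below the lowest DMSO library. The log2 fold change was -0.96 (standard error 0.21), a level 1.95-fold lower. NR1D2 was called lower in all 12 alternative analyses, with values from -1.06 to -0.80, and no annotated gene overlaps its exons. Set against each other, the opposed changes of BHLHE40 and NR1D2 gave a count ratio of 0.62, 0.685 and 0.310 with DMSO and of 2.92, 2.77 and 3.12 with abemaciclib. By group mean, NR1D2 went from the second highest of the 10 genes with DMSO to a place among overlapping genes with abemaciclib. BHLHE40 took the second place by mean with abemaciclib, while with DMSO its libraries overlapped those of PER3 and PER1.

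Of the activator pair, CLOCK, a histone acetyltransferase and basic helix–loop–helix factor on chromosome 4 from 55427903 to 55546909, was the most abundant of the 10 genes in every library. Its level was 89.6, 69.2 and 79.7 CPM with DMSO and 62.9, 64.1 and 57.8 CPM with abemaciclib. The groups did not overlap, but the gap between the lowest DMSO and the highest abemaciclib library was small beside the range of the DMSO libraries. The log2 fold change was -0.37 (standard error 0.14), a level 1.29-fold lower. This call was near the threshold: it was lost with DESeq2, with no filter on low counts and with the replicate block. Leaving out DMSO replicate 1 (log2 fold change -0.28) or DMSO replicate 3 (-0.37) also ended it. So did leaving out abemaciclib replicate 1 (-0.38), 2 (-0.40) or 3 (-0.32).

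BMAL1, the partner of CLOCK, on chromosome 11 from 13276652 to 13387266, was the least abundant of the 10 genes with DMSO. It had 16, 5 and 6 counts in the DMSO libraries and 10, 31 and 15 counts in the abemaciclib libraries, or 4.64, 1.49 and 1.82 CPM against 3.03, 7.65 and 4.05 CPM. The groups overlapped. The log2 fold change of 0.89 had a 95% interval from -0.22 to 2.00, so neither a small fall nor a large rise could be told apart from no difference at this depth. The value rested on single libraries, moving to 1.56 without DMSO replicate 1 and to 0.42 without abemaciclib replicate 2.

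The PER genes encode the inhibitory arm of the loop together with the CRY genes, and none of the 3 was called. PER1, on chromosome 17 from 8140472 to 8156506, had 8.99, 17.5 and 14.8 CPM with DMSO and 17.5, 16.8 and 14.3 CPM with abemaciclib. DMSO replicate 1 was the low library, and without it the log2 fold change of PER1 went from 0.23 to -0.002. PER2, on chromosome 2 from 238244044 to 238290102, was the highest of the PER genes, at 25.8, 26.4 and 19.7 CPM with DMSO and 18.5, 22.2 and 23.2 CPM with abemaciclib. Its groups overlapped, with a log2 fold change of -0.17 (95% interval from -0.60 to 0.27). PER3, on chromosome 1 from 7784291 to 7845177, had 59, 68 and 41 counts with DMSO and 43, 46 and 41 counts with abemaciclib. Of the PER genes it had the lowest fold change, -0.49 on the log2 scale (95% interval from -1.04 to 0.06), and in CPM DMSO replicate 3 fell within the abemaciclib range.

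The cryptochromes, the direct inhibitors of CLOCK–BMAL1, were low. CRY1, on chromosome 12 from 106991364 to 107093549, had 16, 21 and 25 counts in the DMSO libraries and 15, 6 and 1 counts in the abemaciclib libraries. In CPM this was 4.64, 6.24 and 7.57 against 4.54, 1.48 and 0.27, where the upper limit that 0 counts allow (3 counts, counting error only) is 0.740 to 0.909 CPM. The groups did not overlap, yet abemaciclib replicate 1 lay next to the lowest DMSO library. The log2 fold change of -1.58 had a standard error of 0.59, and the call was lost with DESeq2 and with the replicate block. Leaving out any DMSO library also ended it, with values of -1.75, -1.57 and -1.40 for replicates 1, 2 and 3. So did leaving out abemaciclib replicate 2 (-1.38) or 3 (-1.06). Without abemaciclib replicate 1, where CRY1 was highest in its group, the value was -2.73 and the call stood. CRY2, on chromosome 11 from 45847118 to 45883248, had 38, 21 and 17 counts with DMSO and 32, 33 and 17 counts with abemaciclib. Its log2 fold change was -0.01, with a 95% interval from -0.81 to 0.80, and its sign changed between alternatives.

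**Figure D4:**
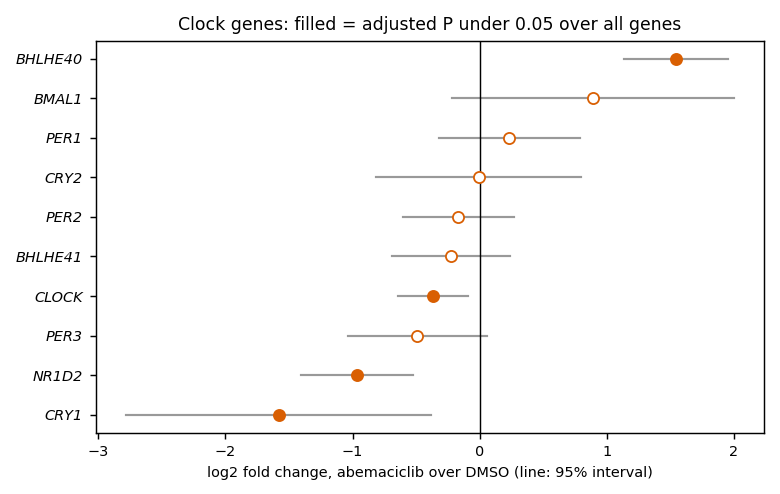
Log2 fold change of each clock gene, abemaciclib over DMSO (x axis), with its 95% interval from the fit over all genes. BHLHE40 is at 1.54 and NR1D2 at -0.96, the intervals of CLOCK and CRY1 end near 0, and those of the 6 open points cross 0.

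The summed level of the 10 genes hardly moved: it was 213.5 to 229.1 CPM with DMSO and 195.4 to 219.3 CPM with abemaciclib, and the groups overlapped. What changed was the make-up of the sum. BHLHE40 gave 5.53% to 8.70% of the clock gene counts with DMSO and 21.8% to 24.1% with abemaciclib. NR1D2 gave 12.7% to 17.9% with DMSO and 7.19% to 8.28% with abemaciclib. In order of mean level, CLOCK stood clear of the next gene in both groups. With DMSO, NR1D2 also stood clear of PER2, while PER2 and BHLHE41 overlapped, and from PER3 down through BHLHE40, PER1, CRY2, CRY1 and BMAL1 each gene overlapped the next. With abemaciclib, BHLHE40 stood clear of both CLOCK above it and PER2 below it, PER2, BHLHE41, PER1 and NR1D2 overlapped each with the next, PER3 stood between NR1D2 and CRY2 without overlapping either, and CRY2, BMAL1 and CRY1 overlapped at the bottom. None of the 10 genes shares exon bases with another annotated gene within 1000 bases of its annotated end, where reads of this kit fall.

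The genes whose levels followed BHLHE40 most closely over the 6 libraries were HSD17B1, TMEM147, TJP3, TST and SELENOW. They were the 5 highest by Pearson correlation of log2 CPM among 6141 tested genes with a mean of at least 20 CPM, with r from 0.993 to 0.998. The 6 libraries fall into 2 treatment groups, so r mostly reflects the step between the groups and is a description. HSD17B1, an enzyme that makes oestradiol from oestrone, was nearest and had 25.6 CPM with DMSO and 44.1 CPM with abemaciclib. The steps of these 5 genes were smaller than that of BHLHE40, with log2 fold changes from 0.63 for TMEM147 to 1.08 for TST.

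The 4 further clock lists were chosen with earlier results of these data known, so their adjusted P values are a description. Outside the 10 genes, 8 other clock transcription factors and repressors were listed, of which 4 had enough counts to be tested. Of these, 3 fell and 0 rose with abemaciclib (0 rose at an unadjusted P under 0.05, and 0 with DESeq2). The median log2 fold change was -1.96. Among all genes tested, 12.5% were called higher and 13.3% lower. RORB, a receptor that activates through ROR elements, had 33, 30 and 18 counts with DMSO and 4, 7 and 0 counts with abemaciclib. All of its abemaciclib libraries were below all DMSO libraries, and the log2 fold change reached -2.97 (adjusted P = 0.000474, standard error 0.61). BMAL2, the paralogue of BMAL1, went from 16, 14 and 13 counts to 4, 1 and 1 counts. The log2 fold change of BMAL2 was -2.88 (adjusted P = 0.00236, standard error 0.69). With abemaciclib it lay at 1.21, 0.247 and 0.270 CPM, where the upper limit that 0 counts allow is 0.740 to 0.909 CPM. RORB and BMAL2 were not tested under the filter of at least 10 counts in every library. Both passed the main filter only through their DMSO libraries, so nothing is read from the count of falls or the median of this list. TIMELESS, a replication fork protein that takes its name from a fly clock gene, had 155, 131 and 119 counts with DMSO and 86, 88 and 93 counts with abemaciclib and fell by 0.72 on the log2 scale (standard error 0.18, adjusted P = 0.00396). TIMELESS acts at DNA replication, and the part of the proliferation difference in its value was not tested.

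NR1D1, the paralogue of NR1D2 that encodes REV-ERBα, had 8.70, 12.8 and 9.09 CPM with DMSO and 7.87, 1.97 and 5.13 CPM with abemaciclib. Its groups did not overlap, but its log2 fold change of -1.05 did not pass (adjusted P = 0.0625), and it passed with no filter on low counts and without abemaciclib replicate 1 (-1.52). Its end overlaps THRA on the opposite strand, and whether the counting used strand is not given in the sources used here, so its counts are uncertain. CIART, a repressor of CLOCK–BMAL1, had 10, 18 and 6 counts with DMSO and 0, 6 and 1 counts with abemaciclib and was too low for the test. It was called lower with no filter on low counts (-2.38 on the log2 scale) and without DMSO replicate 3 (-2.66). RORA was also too low, at 8 to 16 counts with DMSO and 9 to 11 counts with abemaciclib.

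Of 10 clock output genes, 8 were tested, and 3 fell and 0 rose (0 rose at an unadjusted P under 0.05, and 0 with DESeq2). Their median log2 fold change was -0.08. The shares called over all genes tested were 12.5% higher and 13.3% lower. DBP, a PAR bZIP factor and a classical direct target of CLOCK–BMAL1, had 22.6, 16.6 and 17.6 CPM with DMSO. With abemaciclib it had 10.3, 8.14 and 5.13 CPM, all below the DMSO libraries. On the log2 scale it fell by 1.27 (adjusted P = 0.00152, standard error 0.29), and its end overlaps SPHK2 on the opposite strand, which held 177 counts over the 6 libraries against 278 for DBP. WEE1, a kinase that holds back entry into mitosis, had 114, 128 and 115 counts with DMSO and 26, 76 and 60 counts with abemaciclib and fell by 1.29 on the log2 scale (standard error 0.24, adjusted P = 0.000138). WEE1 belongs to the cell cycle, and the part of the proliferation difference in its value was not tested. The Krüppel-like factor KLF9 fell by 0.45 (log2 scale, adjusted P = 0.0247). The call of KLF9 was lost with DESeq2, without DMSO replicate 3 (-0.37) and without abemaciclib replicate 2 (-0.37).

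The other output genes did not pass. TSC22D3, the most abundant of them, had a log2 fold change of 0.10 (95% interval from -0.16 to 0.36), and NAMPT, which makes a precursor of NAD, had 0.04 (from -0.35 to 0.44). TEF, the PAR bZIP relative of DBP, had 0.09, with a wide interval from -0.73 to 0.91. NOCT and USP2 were too low for the test. NOCT was called higher once, without abemaciclib replicate 1 (log2 fold change 2.04), its counts being 7, 3 and 2 with DMSO and 5, 12 and 26 with abemaciclib.

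The listed kinases and ubiquitin enzymes that act on clock proteins were all tested. Of 15 genes 1 rose and 3 fell, with a median log2 fold change of -0.12. For all genes tested the shares called were 12.5% higher and 13.3% lower, so nothing is read from these counts. SIAH2, a ubiquitin ligase that acts on REV-ERBα, had 110.2, 116.4 and 126.3 CPM with DMSO and 157.6, 159.9 and 164.3 CPM with abemaciclib, a rise of 0.45 on the log2 scale (adjusted P = 0.00245). PRKAA1, a catalytic subunit of the energy sensor AMPK, fell by 0.78 (log2 scale, adjusted P = 0.0295). CSNK2A1, a catalytic subunit of casein kinase 2, fell by 0.36 (adjusted P = 0.0254), and USP7, a deubiquitinase, fell by 0.28 (adjusted P = 0.0258). The 3 falls were not firm. The call of PRKAA1 was lost with DESeq2 and without any 1 library other than abemaciclib replicate 2, with values from -0.83 to -0.68. The call of CSNK2A1 was lost with DESeq2, without DMSO replicate 2 (-0.29) and without abemaciclib replicate 1 (-0.32). The call of USP7 was lost with the replicate block, and without replicate 1 (-0.25) or 2 (-0.28) of DMSO or replicate 1 (-0.24) or 2 (-0.28) of abemaciclib. The casein kinase 1 genes, which phosphorylate PER proteins, did not pass: CSNK1A1 was at -0.23 on the log2 scale (adjusted P = 0.088) and CSNK1D, whose end overlaps SLC16A3 on the opposite strand, at 0.10 (adjusted P = 0.576). GSK3B had 0.21 (adjusted P = 0.197).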

How the data were processed

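The 6 libraries, 3 per treatment, were grouped by the treatment in their labels. Per the labels and the study's methods, the authors used STAR 2.7.5b on hg38 for alignment after trimming, and featureCounts 2.0.1 with GENCODE genes for counting. They deposited raw counts, which are not normalized. The strand setting is not given in the sources used here, and the labels and the methods name different versions of the 3′ kit. The methods describe independent biological replicates. No molecular identifiers are described, so limits from counts cover counting error only.

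Genes were matched to symbols by identifier (60401 of 60656) and to positions in a later GENCODE release on GRCh38. Analysis used R 4.3.3 with edgeR 4.0.16: filterByExpr, TMM, glmQLFit and glmQLFTest with treatment alone, and Benjamini–Hochberg adjustment over all 10863 genes tested, at a threshold of 0.05. Standard errors are the log2 fold change over the square root of F, and 95% intervals use the t distribution of the fit. The common biological coefficient of variation was 13.2%. The script was tested on simulated counts.

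Alternatives were DESeq2 1.42.0, its size factors in edgeR, total counts only, no filter, at least 10 counts in every library, a replicate block, and each library left out. The members and gene lists were chosen with earlier results of these data known. All members are named. From 4 further clock lists, genes past the threshold and, per list, the 3 most abundant others are named, and others were named after their values were seen. The gene pairs shown as ratios were also picked with their values known. Ratios of PER1 to PER2 and of PER3 to PER2 were computed too. Their groups overlapped, and they are not drawn. The values of 1 listed kinase or ubiquitin gene are not reported here.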

Additional observations from a re-analysis of the deposited data

How the results depend on the processing

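Counts of calls were recomputed under 12 alternatives. Over all genes, 981 to 1412 were higher and 1132 to 1529 lower when a library was left out. Of the 10 clock genes, 1 (BHLHE40) was higher in all 12. The number lower was 3, and 1 with DESeq2 and 1 with the replicate block, and 1 to 2 when a library was left out. NR1D2 was lower in all 12. With at least 10 counts in every library, BMAL1 and CRY1 had no value. The other factors and repressors had 5 lower with no filter, and 1 under the filter of at least 10 counts per library, which tests fewer genes. Output genes had 0 to 1 higher when a library was left out. The kinases and ubiquitin enzymes had 1 lower with DESeq2, 4 with at least 10 counts in every library, and 0 to 3 when a library was left out. The gene gained under that filter was PRKAA2, at -1.07 on the log2 scale. In the main fit it was at -1.06 and did not pass (adjusted P = 0.0595). The coregulators had 0 higher with DESeq2 and 0 with the replicate block, and 0 to 1 when a library was left out. The cause of these shifts was not tested. In the replicate block the model gave 1139 genes higher and 1280 lower. Deviations of libraries with the same replicate number correlated at -0.14, 0.005 and -0.21. These values give no sign of pairing, but they cannot show whether same-numbered libraries were cultured or prepared together. No scaling moved the median of all genes by 0.1 or more on the log2 scale. Few counts limit the precision for BMAL1, CRY1 and CRY2, among others.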

Other observations

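Of 14 coregulators of clock transcription, all tested, 1 rose and 2 fell with abemaciclib, and the median log2 fold change was -0.03. With 12.5% of all genes tested called higher and 13.3% lower, nothing is read from these counts either. The falls were in SFPQ and NONO, RNA-binding proteins found in PER complexes. SFPQ had 472.8, 448.8 and 463.4 CPM with DMSO and 262.0, 284.7 and 280.7 CPM with abemaciclib, which is -0.74 on the log2 scale (adjusted P = 4.17e-07). NONO had 314.7, 304.2 and 292.9 CPM with DMSO and 243.8, 244.7 and 224.8 CPM with abemaciclib, or -0.35 on the log2 scale (adjusted P = 0.00667). Both were called lower under every alternative run. PSPC1, their relative, had -0.04 (95% interval from -0.42 to 0.34).

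DDB1, an adaptor of CUL4 ubiquitin ligases, rose by 0.32 on the log2 scale (adjusted P = 0.0339). Its call was lost with DESeq2, with the replicate block and when replicate 1 (0.32) or 2 (0.26) of DMSO or replicate 1 (0.30) or 3 (0.27) of abemaciclib was left out. KDM5A, a histone demethylase known both as an Rb partner and as a coactivator of CLOCK–BMAL1, had 252.3, 256.1 and 248.7 CPM with DMSO and 253.5, 278.0 and 287.5 CPM with abemaciclib. Its log2 fold change of 0.11 did not pass (adjusted P = 0.432). The acetyltransferase CREBBP had -0.22 (adjusted P = 0.143) and NCOR1, a corepressor that REV-ERB receptors recruit, had -0.12 (adjusted P = 0.546). The end of NCOR1 overlaps TTC19 on the opposite strand, which held 1576 counts over the 6 libraries against 2371 for NCOR1, so its counts are uncertain.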
